A study of Rattus norvegicus with 10 samples.

Results

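The genes described are Egr1, Egr2, Egr3, Egr4, Nr4a1, Nr4a2 and Nr4a3, which are all rat members of the early growth response (Egr) and nuclear receptor 4A (Nr4a) families of transcription factors. They were found by their gene names in a table of 32545 genes, and all 7 were present and passed the filter on low counts, which 15032 genes passed. RNA-seq was performed on the CA1 region of hippocampal slices from adult male Wistar rats of 5 to 7 weeks, in 5 groups of 2 libraries. The SKF group received SKF, an agonist of dopamine D1/D5 receptors. The SKF+Aβ group received SKF with 200 nM oligomers of amyloid-β (Aβ), the SKF+Aβ+CSP group received in addition 0.36 μg/ml of glucose-derived carbon nanospheres (CSP) as the vehicle, and the SKF+Aβ+CSP-TTK21 group received the same nanospheres loaded with TTK21, a small molecule that activates the acetyltransferases CBP and p300. The CSP-TTK21 alone group received 0.36 μg/ml of CSP-TTK21 without SKF and without Aβ. All slices had 30 min of basal stimulation and were collected 1 h after treatment, and each repeat pooled 2 slices from 2 biological samples. Since the CSP-TTK21 alone group differs from the SKF group both in SKF and in CSP-TTK21, their parts in a difference between these groups cannot be told apart. An untreated group is not analysed here.

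Egr and Nr4a genes are immediate early genes. In neurons they are transcribed within minutes of synaptic activity or of receptor signalling through cAMP and MAP kinases, without the need for new protein, and their products then switch on or repress later genes. Egr proteins are zinc finger factors that bind GC-rich DNA, and most of them are held back by the corepressors Nab1 and Nab2. Nr4a proteins are orphan nuclear receptors that bind DNA as monomers or dimers, and Nr4a1 and Nr4a2 can also pair with retinoid X receptors. Egr1 and the Nr4a genes are known for their roles in late-phase plasticity and in the formation of long-term memory in the hippocampus.

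The libraries held from 6753742 to 8473407 counts in all. Counts of the members were between 76, for Egr2 in the second CSP-TTK21 alone library, and 4464, for Egr1 in the second SKF library. Among the markers of CA1, Wfs1, Mpped1 and Man1a1 were detected and Fibcd1 was listed with 0 counts in all libraries. Markers of dentate granule cells were detected as well. The summed CPM over the libraries was 292 to 635 for the CA1 markers and 211 to 315 for the dentate granule markers. Between the lowest and the highest library, the summed level of the neuronal markers varied by 1.28 times. That of the CA1 markers varied by 2.18 times and that of the oligodendrocyte markers by 2.28 times. Of 11 marker lists, 0 genes passed the adjusted threshold in edgeR in any comparison, and the lists whose summed level did not overlap between the groups are given beside each comparison. The part of any of these lists in the members' levels was not tested. In this bulk RNA, fewer cells of a type and less RNA per cell cannot be told apart.

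Egr1, a member required for late LTP, had 557 and 596 normalized CPM (counts scaled to a common library size with TMM factors) under SKF, 298 and 589 with added Aβ, 362 and 497 with Aβ and CSP, 511 and 576 with Aβ and CSP-TTK21, and 359 and 231 under CSP-TTK21 alone. Both CSP-TTK21 alone libraries lay below every SKF, SKF+Aβ+CSP and SKF+Aβ+CSP-TTK21 library. The SKF+Aβ libraries lay far apart, the first between the CSP-TTK21 alone libraries and the second between the SKF libraries. By group mean SKF was highest, followed by SKF+Aβ+CSP-TTK21, then SKF+Aβ, then SKF+Aβ+CSP, with CSP-TTK21 alone lowest, and every neighbouring pair overlapped but the last, whose nearest libraries stood at 362 and 359.

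Egr2, which is best known from myelination and hindbrain segmentation and is also induced by activity, had 49.9 and 28.3 normalized CPM under SKF, 19.0 and 38.0 with added Aβ, 13.1 and 25.5 with Aβ and CSP, 26.1 and 32.5 with Aβ and CSP-TTK21, and 18.1 and 10.2 under CSP-TTK21 alone. The order of the group means was that of Egr1, and here every neighbouring pair of groups overlapped. Egr2 had the widest range of the group means, with the highest 2.76 times the lowest.

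Egr3, which is needed for muscle spindles and is induced by calcium and MAP kinase signalling, had 173 and 108 normalized CPM under SKF, 132 and 132 with added Aβ, 81.6 and 110.2 with Aβ and CSP, 108 and 112 with Aβ and CSP-TTK21, and 105 and 73.4 under CSP-TTK21 alone. The SKF+Aβ libraries lay above both SKF+Aβ+CSP-TTK21 libraries, and the other neighbours in the order of the means overlapped.

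Egr4, which unlike the other Egr proteins is not bound by the Nab corepressors, had 56.1 and 26.0 normalized CPM under SKF, 20.3 and 45.01 with added Aβ, 12.1 and 23.6 with Aβ and CSP, 21.9 and 34.2 with Aβ and CSP-TTK21, and 25.5 and 13.1 under CSP-TTK21 alone. Its lowest group mean was that of SKF+Aβ+CSP, not of CSP-TTK21 alone, and all neighbours overlapped.

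Nr4a1, or Nur77, an immediate early gene of many cell types, had 201 and 139 normalized CPM under SKF, 94.7 and 183 with added Aβ, 75.1 and 118 with Aβ and CSP, 145 and 132 with Aβ and CSP-TTK21, and 99.0 and 79.5 under CSP-TTK21 alone. Both CSP-TTK21 alone and both SKF+Aβ+CSP libraries lay below every SKF and SKF+Aβ+CSP-TTK21 library. By group mean the order was SKF, SKF+Aβ, SKF+Aβ+CSP-TTK21, SKF+Aβ+CSP and CSP-TTK21 alone, and each overlapped the next except for SKF+Aβ+CSP-TTK21, which lay wholly above SKF+Aβ+CSP.

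Nr4a2, or Nurr1, which specifies midbrain dopamine neurons and is required for some forms of hippocampal memory, had 142 and 145 normalized CPM under SKF, 123 and 156 with added Aβ, 114 and 131 with Aβ and CSP, 166 and 157 with Aβ and CSP-TTK21, and 118 and 113 under CSP-TTK21 alone. The libraries of a group lay close together in SKF, in CSP-TTK21 alone and in SKF+Aβ+CSP-TTK21, and these 3 groups did not overlap. The SKF+Aβ+CSP-TTK21 libraries were the highest of all 10. By group mean SKF, SKF+Aβ, SKF+Aβ+CSP and CSP-TTK21 alone followed in this order, each overlapping the next.

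Nr4a3, or Nor1, the third nuclear receptor of the family, had 120.3 and 142 normalized CPM under SKF, 103 and 176 with added Aβ, 98.1 and 138 with Aβ and CSP, 138 and 158 with Aβ and CSP-TTK21, and 126 and 104 under CSP-TTK21 alone. Its groups overlapped throughout, except that both CSP-TTK21 alone libraries and both SKF+Aβ+CSP libraries lay below both SKF+Aβ+CSP-TTK21 libraries, and its highest group mean was 1.29 times its lowest. By group mean SKF+Aβ+CSP-TTK21 was highest, then SKF+Aβ, SKF, SKF+Aβ+CSP and CSP-TTK21 alone.

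**Figure D1:**
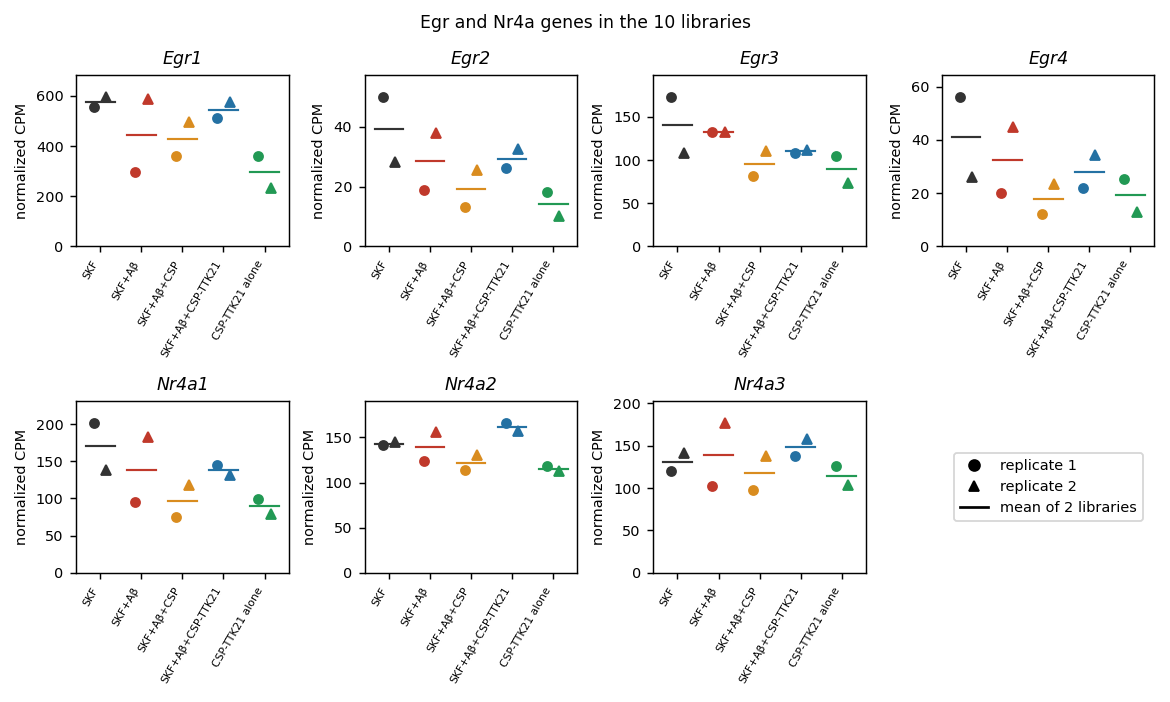
Normalized CPM of each gene (vertical axis, from 0) in the 5 groups (horizontal axis), with circles for replicate 1, triangles for replicate 2 and bars for the mean of the 2 libraries. The CSP-TTK21 alone libraries sit low for Egr1 at 359 and 231 and for Nr4a1 at 99.0 and 79.5, while the SKF+Aβ libraries of Egr1 are far apart at 298 and 589.

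Over the 5 groups, edgeR's quasi-likelihood F test called 0 of 7 members at a Benjamini-Hochberg adjusted p under 0.05, against 0.00665% of all genes tested. DESeq2 and limma also called 0 of 7, against 2.71% of all genes with DESeq2 and 0.00665% with limma. Without the filter on low counts 5 of 7 passed, against 5.55% of all 25251 genes then tested, in a fit in which edgeR set its prior degrees of freedom to infinite, so that a gene's own spread between replicates did not enter its test. With the filter, 5 of 7 members had an unadjusted p under 0.05 in edgeR, against 14.3% of all genes, and the 2 that did not were Egr4 and Nr4a3. The count was 5 with limma, against 14.5% of all genes, and 2 with DESeq2, against 12%. It was 2 without the first SKF library (10.3% of all genes), 3 without the first SKF+Aβ+CSP library (11.7%) and 0 without the second CSP-TTK21 alone library (13.4%), where each share is that of the same fit. The smallest p was that of Egr2 (unadjusted p = 0.0175, adjusted p = 0.272 in edgeR). An exact permutation test over all 945 ways to pair the 10 libraries asked, gene by gene, whether libraries of 1 group lay closer to each other than libraries paired at random. Its one-sided p was lowest for Nr4a2 at 0.0921 (exact permutation test, smallest possible 0.00106), and lay between 0.242 for Egr1 and 0.742 for Nr4a3 for the other members.

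In 3 of the 5 groups the 2 libraries differed in the same direction for at least 6 of 7 members. In CSP-TTK21 alone, 7 of 7 members were higher in replicate 1, by a median of 0.52 on the log2 scale, while 48.2% of all genes were higher there. In SKF+Aβ+CSP, 7 of 7 were higher in replicate 2, and in SKF+Aβ 6 of 7 were, with Egr3 the exception at nearly equal levels. In SKF+Aβ the median of replicate 1 minus replicate 2 was -0.95 on the log2 scale, a larger gap than the median of the members in any of the 8 comparisons between groups. The members of a library share its slices and its depth, so they are not independent of each other.

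**Figure D2:**
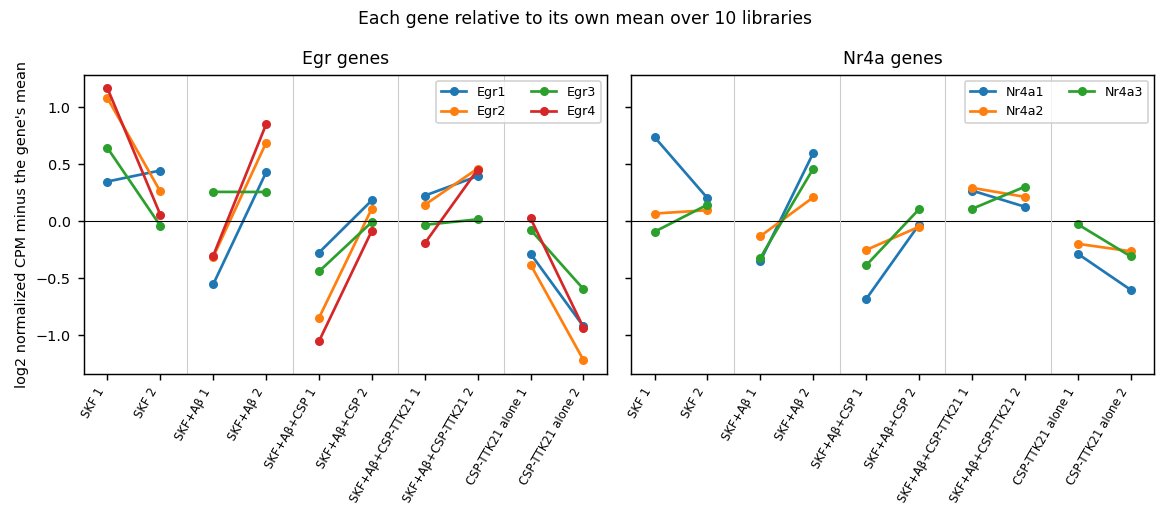
Level of each gene in each library on the log2 scale, relative to the gene's own mean over the 10 libraries (vertical axis), with the 2 libraries of a group joined by a line (horizontal axis, libraries by group). Every gene stands lower in replicate 2 of CSP-TTK21 alone, where the median difference is 0.52, and lower in replicate 1 of SKF+Aβ+CSP.

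The comparison of CSP-TTK21 alone with SKF asks how levels with the activator alone relate to those under D1/D5 stimulation. All 7 members were lower in CSP-TTK21 alone, with a median log2 fold change of -0.93 against 0.0023 over all genes. With edgeR, 0 of 7 passed the adjusted threshold, as did 0% of all genes, and 5 of 7 passed without the filter on low counts, against 0.622% of all genes then tested. In the filtered fit, 6 of 7 were lower and none higher at an unadjusted p under 0.05, against 3.63% of all genes that were lower at that p. Limma gave 6, against 3.55% of all genes lower, and DESeq2 gave 5, against 2.45%, at that unadjusted p. After adjustment both gave 0, against 0.00665% of all genes with limma and 0.0200% with DESeq2. The 2 groups did not overlap for 6 of 7 members, all lower in CSP-TTK21 alone, against 17.3% of all genes.

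The largest log2 fold changes of this comparison were those of Egr2 at -1.47 (SE 0.39, 95% confidence interval -2.30 to -0.63) and Egr4 at -1.09 (SE 0.44, -2.05 to -0.14). Egr1 had -0.97 (SE 0.27, -1.55 to -0.38), Nr4a1 had -0.93 (SE 0.28, -1.53 to -0.33) and Egr3 had -0.65 (SE 0.22). Nr4a2 had a smaller difference of -0.31 (SE 0.14), and Nr4a3, the one member whose groups overlapped, had -0.19 (SE 0.23, -0.68 to 0.29). The adjusted p in edgeR was 0.633 for each of the other 6 and 0.842 for Nr4a3. The number with an unadjusted p under 0.05 was 2 without the first SKF library, against 2.56% of all genes lower in that fit, and 3 without the second CSP-TTK21 alone library, against 0.878%. The first SKF library was the higher of its group for 4 members, and the second CSP-TTK21 alone library was the lower of its group for 7 of 7.

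Of the 11 marker lists, 4 had summed levels that did not overlap between these groups. Of single genes, 17.3% did not overlap and were lower in CSP-TTK21 alone, and 18.8% did not and were higher. The 4 CA2 and CA3 markers in the table had a summed CPM of 123 to 151 in SKF and 93.6 to 112 in CSP-TTK21 alone, where 4 of 4 were lower and Rgs14 and Bok had an unadjusted p under 0.05. The 6 oligodendrocyte markers had 16175 to 23904 in SKF and 14888 to 15164 in CSP-TTK21 alone, where 6 of 6 were lower, with a median log2 fold change of -0.34, and Mbp and Mobp had an unadjusted p under 0.05. The 6 interneuron markers, at 390 to 391.6 and 413 to 456, and the 7 markers of choroid plexus and meninges, at 11.4 to 16.3 and 17.5 to 20.01, had a higher sum in CSP-TTK21 alone. Gene by gene, 3 of the 6 interneuron markers were lower, with a median log2 fold change of -0.0053. Of the 5 choroid plexus and meninges markers tested, 0 were lower. The CA1 markers, at 354 to 522 and 292 to 415, and the neuronal markers, at 6434 to 6899 and 6749 to 7022, overlapped.

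SKF+Aβ+CSP also had lower member levels than SKF, and these comparisons share the SKF libraries. All 7 members had a negative log2 fold change, with a median of -0.55 against 0.0022 over all genes, and 6 of 7 kept that sign under every alternative, Nr4a3 being the exception at 0.061 without the first SKF+Aβ+CSP library. With edgeR, 0 of 7 passed the adjusted threshold, against 0.0200% of all genes. DESeq2 and limma called 0 as well, against 3.01% and 0.0532% of all genes. In edgeR without the filter on low counts 4 of 7 passed, against 2.99% of all genes then tested. At an unadjusted p under 0.05, 4 of 7 were lower, against 9.03% of all genes, and these were Egr2 at -1.03 (SE 0.38), Egr3 at -0.55 (SE 0.22), Egr4 at -1.22 (SE 0.45) and Nr4a1 at -0.82 (SE 0.28) on the log2 scale. In either direction, 19.3% of all genes passed with edgeR, and the count was 4 with limma, against 19.4%, and 2 with DESeq2, against 15.0%. The lowest adjusted p of a member was 0.148, for Nr4a1 in edgeR. The groups did not overlap for 5 of 7 members, all lower in SKF+Aβ+CSP, against 25.3% of all genes. Without the first SKF library, or without the first SKF+Aβ+CSP library, the number of members at an unadjusted p under 0.05 was 0, against 15.0% and 15.7% of all genes. The other 3 members had log2 fold changes of -0.43 (Egr1, SE 0.27), -0.23 (Nr4a2, SE 0.14) and -0.15 (Nr4a3, SE 0.23).

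Of the marker lists, 2 did not overlap in the same comparison. Of single genes, 25.3% did not overlap and were lower in SKF+Aβ+CSP, and 27.1% did not and were higher. The summed CPM of the 6 microglial markers was 79.5 to 147 in SKF and 62.7 to 78.0 in SKF+Aβ+CSP, with 6 of 6 lower, a median log2 fold change of -0.55, and Csf1r and C1qa at an unadjusted p under 0.05. That of the CA2 and CA3 markers was 123 to 151 and 103 to 106, with 3 of 4 lower. The astrocyte markers overlapped, at 3209 to 4302 and 3099 to 3294, and of the 6, Aldh1l1 and Aldoc were lower at an unadjusted p under 0.05.

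Adding Aβ to SKF gave no called difference for the members. In SKF+Aβ against SKF, 0 of 7 members passed the adjusted threshold in edgeR, DESeq2 or limma, although 2.08%, 5.47% and 2.33% of all genes did in turn. At an unadjusted p under 0.05 the count was again 0 of 7 with each tool, while 22.8%, 18.1% and 22.7% of all genes passed. Egr1 had a log2 fold change of -0.38 (95% confidence interval -0.95 to 0.20) and Nr4a2 one of -0.03 (-0.33 to 0.26). Those of the other members were -0.46 for Egr2, -0.09 for Egr3, -0.33 for Egr4, -0.29 for Nr4a1 and 0.09 for Nr4a3, and all 7 members overlapped between the groups. The summed CPM of the oligodendrocyte markers was 10896 to 15485 in SKF+Aβ and 16175 to 23904 in SKF, with 6 of 6 lower and 4 of them at an unadjusted p under 0.05, and that of the choroid plexus and meninges markers was 19.2 to 32.0 and 11.4 to 16.3. Of the 5 choroid plexus and meninges markers tested, 1 was lower in SKF+Aβ. Without the second SKF+Aβ library, 3 of 7 members had an unadjusted p under 0.05, against 21.0% of all genes in that fit.

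In SKF+Aβ+CSP-TTK21 against SKF, 0 of 7 members passed the adjusted threshold in edgeR, DESeq2 or limma, against 0.00665%, 2.36% and 0.00665% of all genes in turn. At an unadjusted p under 0.05, 0 passed with each tool, against 19.6%, 15.1% and 19.6% of all genes. Egr1 had a log2 fold change of -0.08 (-0.66 to 0.49) and Nr4a2 one of 0.17 (-0.12 to 0.47). Those of the other members were -0.42 for Egr2, -0.35 for Egr3, -0.55 for Egr4, -0.29 for Nr4a1 and 0.18 for Nr4a3. Without the second SKF library, 2 members had an unadjusted p under 0.05, against 21.7% of all genes. Of the marker lists, 5 did not overlap between these groups. Of single genes, 24.5% did not overlap and were lower in SKF+Aβ+CSP-TTK21, and 26.0% did not and were higher. By summed CPM, the neuronal (7148 to 7828 against 6434 to 6899 in SKF), interneuron (493 to 499.7 against 390 to 391.6), dentate granule and choroid plexus and meninges markers were higher in SKF+Aβ+CSP-TTK21. The endothelial markers were lower (69.7 to 73.0 against 90.1 to 175). Of the tested markers, 2 of 5 neuronal, 1 of 6 interneuron, 1 of 4 dentate granule and 1 of 5 choroid plexus and meninges markers were lower, as were 3 of 4 endothelial markers.

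In SKF+Aβ+CSP-TTK21 against SKF+Aβ, 0 of 7 passed the adjusted threshold with each tool, as did 0% of all genes with edgeR, and 0 passed at an unadjusted p under 0.05, against 6.59% of all genes. Nr4a1 differed by 0.00031 on the log2 scale (-0.59 to 0.59). The log2 fold changes of the other members were 0.29 for Egr1, 0.04 for Egr2, -0.26 for Egr3, -0.22 for Egr4, 0.21 for Nr4a2 and 0.09 for Nr4a3. The astrocyte markers were higher without overlap in SKF+Aβ+CSP-TTK21 (4059 to 4149 against 3234 to 3521 summed CPM, 1 of 6 at an unadjusted p under 0.05), and the endothelial (69.7 to 73.0 against 92.5 to 120.5) and mural markers (59.5 to 66.0 against 68.3 to 75.8) were lower in their sum. Gene by gene, 4 of 4 tested endothelial markers were lower, 1 of them at an unadjusted p under 0.05, and 3 of 5 mural markers were, 0 of them at that p. The oligodendrocyte markers overlapped in their summed level (14790 to 24876 against 10896 to 15485), but 6 of 6 were higher, 5 of them at an unadjusted p under 0.05, with a median log2 fold change of 0.54. Without the second SKF+Aβ library, 3 members had an unadjusted p under 0.05, against 12.8% of all genes.

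The vehicle group allows CSP-TTK21 to be set against CSP with SKF and Aβ in both. All 7 members were higher with CSP-TTK21, 6 of them under every alternative and Egr3 under all but 1 (-0.0028 without the first SKF+Aβ+CSP library), with a median log2 fold change of 0.40 against 0.0085 over all genes, and the groups did not overlap for 5 of 7, against 23.5% of all genes. With edgeR, DESeq2 and limma, 0 of 7 passed the adjusted threshold, as did 0% of all genes with edgeR and limma and 0.146% with DESeq2. Nr4a2, at 0.40 (SE 0.14, 95% confidence interval 0.10 to 0.70, adjusted p = 0.556 in edgeR), was the 1 member of 7 that was higher at an unadjusted p under 0.05, against 3.17% of all genes, and it was so with all 3 tools. In either direction, the count was 0 without the first SKF+Aβ+CSP (6.71% of all genes) or the first SKF+Aβ+CSP-TTK21 library (7.83%), 2 without either SKF+Aβ library (9.75% and 9.81%), and 5 without the second SKF+Aβ+CSP library (3.92%). The log2 fold changes of the other members were 0.34 for Egr1, 0.61 for Egr2, 0.20 for Egr3, 0.66 for Egr4, 0.52 for Nr4a1 and 0.33 for Nr4a3.

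Of the marker lists, 7 did not overlap between these groups, and 5 of them were higher in SKF+Aβ+CSP-TTK21, as the members were. Of single genes, 22.8% did not overlap and were lower in SKF+Aβ+CSP-TTK21, and 23.5% did not and were higher. The summed CPM of the 6 astrocyte markers was 3099 to 3294 in SKF+Aβ+CSP and 4059 to 4149 in SKF+Aβ+CSP-TTK21, with 6 of 6 higher and 2 of them at an unadjusted p under 0.05. That of the 6 microglial markers was 62.7 to 78.0 and 90.5 to 143, that of the 6 interneuron markers 387 to 431 and 493 to 499.7, that of the 5 neuronal markers 6804 to 6930 and 7148 to 7828, and that of the 4 CA2 and CA3 markers 103 to 106 and 114 to 133. Of the 4 CA2 and CA3 markers, 1 was lower. The endothelial markers, of which 4 were detected and Cldn5 was at 0 in all libraries, were lower, at 129.6 to 179 and 69.7 to 73.0, with 4 of 4 at an unadjusted p under 0.05 and a median log2 fold change of -1.11, and the mural markers were at 71.1 to 89.1 and 59.5 to 66.0, with 4 of 5 lower.

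The vehicle itself was compared in SKF+Aβ+CSP against SKF+Aβ. All 7 members had a negative log2 fold change, although 3 of 7 kept that sign under every alternative and Egr1, Egr2, Nr4a1 and Nr4a3 took the other sign without the second SKF+Aβ library (Egr1 with 0.53, Egr2 with 0.014, Nr4a1 with 0.031 and Nr4a3 with 0.20). The adjusted threshold was passed by 0 of 7 with edgeR, DESeq2 or limma, and by 0% of all genes with edgeR and limma and 0.00665% with DESeq2. With edgeR, 0 members passed at an unadjusted p under 0.05, against 2.18% of all genes. DESeq2 and limma each put 1 member, Egr3, under that unadjusted p, against 1.18% and 2.26% of all genes. Without the filter on low counts 1 member, Egr4, passed the adjusted threshold in edgeR, against 0.261% of all genes then tested. In the filtered fit Egr3 was nearest, at -0.47 (SE 0.22, 95% confidence interval -0.94 to 0.0030). The other members had log2 fold changes of -0.05 for Egr1, -0.57 for Egr2, -0.88 for Egr4, -0.52 for Nr4a1, -0.20 for Nr4a2 and -0.24 for Nr4a3. The count was 5 without the first SKF+Aβ library (4.72% of all genes), 4 without the second SKF+Aβ+CSP library (2.02%), 2 without either SKF library (2.58% and 2.55%) and 1 without either CSP-TTK21 alone library (2.29% in both fits). The CA2 and CA3 markers were lower without overlap in SKF+Aβ+CSP (103 to 106 against 125 to 126 summed CPM, 3 of 4 lower), and the oligodendrocyte (17230 to 17611 against 10896 to 15485) and endothelial markers (129.6 to 179 against 92.5 to 120.5) were higher.

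SKF+Aβ+CSP-TTK21 against CSP-TTK21 alone sets slices with SKF and Aβ against slices without, with CSP-TTK21 in both. All 7 members were higher with SKF and Aβ, with a median log2 fold change of 0.54 against 0.0049 over all genes, and the groups did not overlap for 6 of 7, all but Egr4, against 17.6% of all genes. With edgeR, DESeq2 and limma, 0 of 7 passed the adjusted threshold, as did 0% of all genes with edgeR. At an unadjusted p under 0.05, 4 of 7 were higher, against 2.06% of all genes, and these were Egr1 at 0.88 (SE 0.27), Egr2 at 1.05 (SE 0.39), Nr4a1 at 0.63 (SE 0.28) and Nr4a2 at 0.48 (SE 0.14) on the log2 scale. Egr3 had 0.30 (SE 0.22), Egr4 0.54 (SE 0.45) and Nr4a3 0.37 (SE 0.23). In either direction, the count was 4 with limma, against 4.07% of all genes, and 2 with DESeq2, against 2.41%. Without the filter on low counts, 3 passed the adjusted threshold in edgeR, against 0.249% of all genes then tested. The count at an unadjusted p under 0.05 was 2 without the second SKF+Aβ+CSP-TTK21 library (6.39% of all genes) and 1 without the second CSP-TTK21 alone library (6.6%), and the adjusted p was 0.963 for all 7 members in edgeR. Of the marker lists, 5 did not overlap between these groups. The summed CPM, with SKF and Aβ first, was 7148 to 7828 and 6749 to 7022 for the neuronal markers, 493 to 499.7 and 413 to 456 for the interneuron markers, 114 to 133 and 93.6 to 112 for the CA2 and CA3 markers, 257 to 288 and 229 to 233 for the dentate granule markers and 69.7 to 73.0 and 87.8 to 109.7 for the endothelial markers, the one list of these that was lower. Gene by gene, 1 of 5 neuronal, 1 of 6 interneuron, 1 of 4 tested dentate granule and 0 of 4 CA2 and CA3 markers were lower with SKF and Aβ, as were 4 of 4 tested endothelial markers. The CA1 markers overlapped, with a median log2 fold change of 0.57 over the 3 tested.

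**Figure D3:**
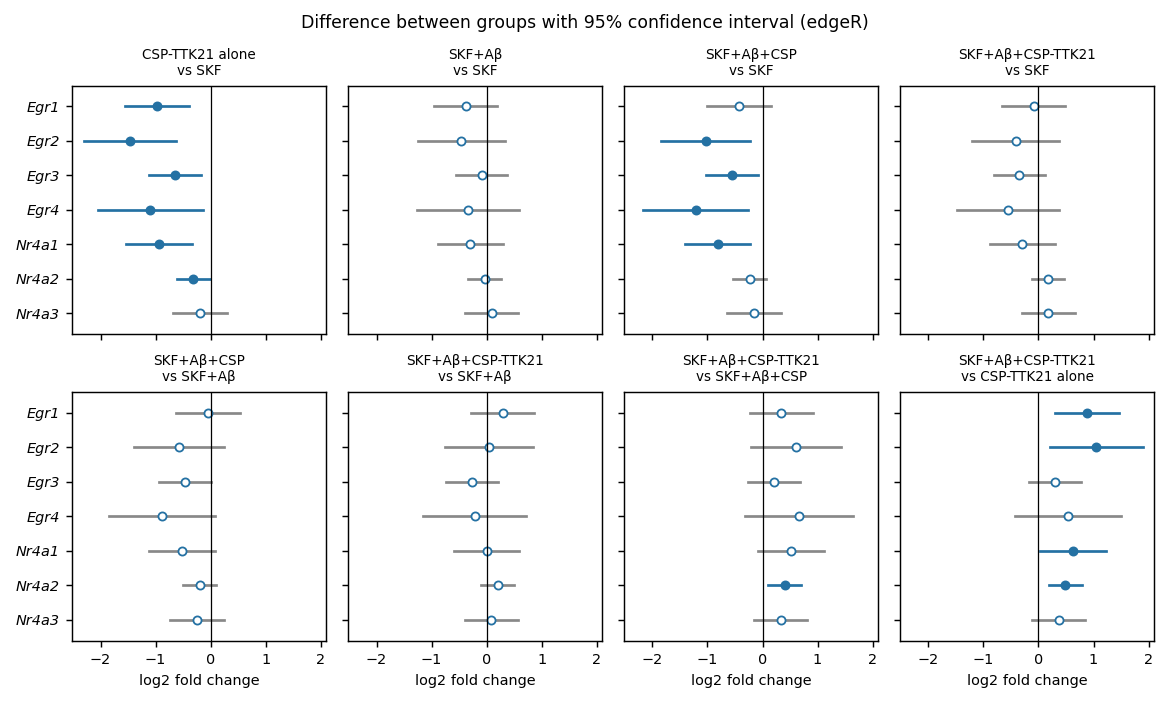
Log2 fold change of each gene in the 8 comparisons (horizontal axis, first-named group relative to the second) with its 95% confidence interval from edgeR, filled where the unadjusted p is under 0.05. Filled points stand at 6 of 7 genes for CSP-TTK21 alone against SKF, at 4 of 7 for SKF+Aβ+CSP against SKF and at none of 7 for SKF+Aβ against SKF, and no gene passed the adjusted threshold in any panel with the filter on low counts.

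Other activity-induced genes were read beside the members. Of 36 such genes listed, 34 were tested. In CSP-TTK21 alone against SKF, 22 of 34 were lower at an unadjusted p under 0.05, against 3.63% of all genes, and none was higher, against 4.16%, with a median log2 fold change of -0.66 against 0.0023 over all genes, and 0 passed the adjusted threshold in edgeR. This count was 19 with DESeq2, against 2.45% of all genes, 20 with limma, against 3.55%, and 8 without the second CSP-TTK21 alone library, against 0.878%. Fos, a partner of Jun in the AP-1 factor, had 489 and 599 normalized CPM in SKF and 288 and 199.97 in CSP-TTK21 alone, a log2 fold change of -1.16 (SE 0.31). Arc, which acts in the removal of AMPA receptors from synapses, had 445 and 226 against 187 and 76.3, a log2 fold change of -1.35 (SE 0.36). Npas4, a factor induced by calcium entry, had 135 and 43.7 against 59.1 and 12.7, with a log2 fold change of -1.32 (SE 0.76), and its groups overlapped.

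In SKF+Aβ against SKF, 3 of the 34 passed the adjusted threshold in edgeR, against 2.08% of all genes. Maff, a small Maf factor, fell by 0.73 on the log2 scale (SE 0.16, adjusted p = 0.0416), Gadd45b, a stress-response gene with a role in DNA demethylation, fell by 0.73 (SE 0.16, adjusted p = 0.0422), and Pcsk1, a prohormone convertase, rose by 0.73 (SE 0.17, adjusted p = 0.0450). The number called was 6 with DESeq2, against 5.47% of all genes, 5 with at least 10 counts asked of every library, against 3.36%, and 0 when only the compared libraries were fitted, against 0.0833%. It was 0 without the first SKF, the first SKF+Aβ or either SKF+Aβ+CSP library, where 0.00644% to 0.167% of all genes passed, and 1 without the second SKF library, where 1.11% did. In the other 7 comparisons 0 of the 34 passed the adjusted threshold. At an unadjusted p under 0.05, SKF+Aβ against SKF gave 9 of 34, against 22.8% of all genes, of which 7 were lower, against 10.9%, and 2 higher. SKF+Aβ+CSP against SKF gave 11 lower, against 9.03%, and 1 higher, against 10.3%, and Fos, Arc and Npas4 had log2 fold changes of -0.79, -0.81 and -0.76. SKF+Aβ+CSP-TTK21 against SKF gave 9 lower, against 8.78%, and 2 higher, against 10.8%, and these 3 genes had -0.19, -0.84 and -0.78. SKF+Aβ+CSP-TTK21 against CSP-TTK21 alone gave 9 higher, against 2.06%, and none lower, with Fos at 0.97, Arc at 0.51 and Npas4 at 0.53. The other comparisons gave 1 of 34 each, against 2.18% of all genes in SKF+Aβ+CSP against SKF+Aβ, 6.59% in SKF+Aβ+CSP-TTK21 against SKF+Aβ and 8.78% in SKF+Aβ+CSP-TTK21 against SKF+Aβ+CSP. Fos, Arc and Npas4 had -0.07, -0.36 and -0.29 on the log2 scale in SKF+Aβ+CSP against SKF+Aβ. They had 0.53, -0.39 and -0.31 in SKF+Aβ+CSP-TTK21 against SKF+Aβ. In SKF+Aβ+CSP-TTK21 against SKF+Aβ+CSP, where all 7 members were higher, 18 of the 34 were lower. The median log2 fold change of the 34 there was -0.03, against 0.0085 over all genes, with Fos at 0.60, Arc at -0.03 and Npas4 at -0.02.

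Genes that act on or with the members were read next. Of 5 partners and corepressors, Nab1, Nab2, Rxra, Rxrb and Rxrg, 0 passed the adjusted threshold in edgeR in any comparison, and at most 1 had an unadjusted p under 0.05 in a comparison. Of 20 listed regulators upstream of the members, among them Srf, the Elk and Creb factors and their coactivators, 19 were tested and 0 passed the adjusted threshold in any comparison. The count at an unadjusted p under 0.05 was 7 of 19 in SKF+Aβ+CSP-TTK21 against SKF (4 higher and 3 lower), against 19.6% of all genes, and 6 in SKF+Aβ against SKF (3 higher and 3 lower), against 22.8%. It was 3 in SKF+Aβ+CSP against SKF, against 19.3%, 3 in CSP-TTK21 alone against SKF (2 higher and 1 lower), against 7.78%, and 0 or 1 in the other comparisons. Crebbp and Ep300, which encode the acetyltransferases that TTK21 activates, had log2 fold changes of 0.06 and -0.04 in that comparison.

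For each member, the 3 genes with the nearest centred log2 profile over the 10 libraries were taken. The measure was the root mean square difference over the 10 libraries, for which a smaller value means a more similar profile. Nearest to Egr1 were Fosb (0.139), Dusp1 (0.153) and Fos (0.194), against a median of 0.51 over all genes. That median was 0.70 for Egr2 and for Egr4, 0.41 for Egr3, 0.51 for Nr4a1, 0.30 for Nr4a2 and 0.35 for Nr4a3, and it is smaller for a member that varied less, so differences are not comparable between members. Egr2 and Egr4 were each other's nearest gene (0.224), and Nr4a1 came second for both (0.256 to Egr2 and 0.30045 to Egr4). Nr4a1 itself was nearest to Klf2 (0.109), Cmc2 (0.191) and Pcdh8 (0.229), and Egr3 to Pcdh8 (0.0751), LOC100910568 (0.145) and Nrxn3 (0.148). Nr4a2 was nearest to Zfp512 (0.0922), C1ql3 (0.104) and Setd7 (0.108), and Nr4a3 to Nedd9 (0.101), Nfil3 (0.127) and Dtymk (0.144). The third nearest gene was Klf2 for Egr2 (0.289) and Srp14 for Egr4 (0.301). Of all pairs of members, Nr4a2 and Nr4a3, which varied least around their own means (0.195 and 0.265), had the smallest difference (0.155), and other genes lay nearer to each of them. These are descriptions over 10 points that share libraries and depth.

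The promoters of Egr2, Egr4 and Nr4a1 are shown because Egr2 and Egr4 were each other's nearest gene and Nr4a1 came second for both. RefSeq promoter entries on the GRCr8 assembly matched 5 of 7 members, Egr1, Egr2, Egr4, Nr4a1 and Nr4a2, and the 250 bases before the annotated start were searched on both strands. The windows of Egr2 (chr20:21054442-21054691, minus strand), Egr4 (chr4:119607818-119608067, minus strand) and Nr4a1 (chr7:134259888-134260137, plus strand) follow, 5′ to 3′ on the strand of the gene, with the motif matches in capitals.
Egr2: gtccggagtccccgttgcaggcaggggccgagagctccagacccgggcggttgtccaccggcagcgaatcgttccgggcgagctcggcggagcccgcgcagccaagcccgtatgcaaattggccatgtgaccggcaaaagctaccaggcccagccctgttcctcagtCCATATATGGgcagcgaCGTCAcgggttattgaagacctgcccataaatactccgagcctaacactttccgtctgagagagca
Egr4: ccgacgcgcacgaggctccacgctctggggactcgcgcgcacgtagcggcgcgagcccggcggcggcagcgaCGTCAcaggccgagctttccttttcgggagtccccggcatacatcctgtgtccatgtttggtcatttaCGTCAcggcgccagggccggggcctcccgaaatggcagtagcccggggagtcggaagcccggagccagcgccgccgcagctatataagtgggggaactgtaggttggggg
Nr4a1: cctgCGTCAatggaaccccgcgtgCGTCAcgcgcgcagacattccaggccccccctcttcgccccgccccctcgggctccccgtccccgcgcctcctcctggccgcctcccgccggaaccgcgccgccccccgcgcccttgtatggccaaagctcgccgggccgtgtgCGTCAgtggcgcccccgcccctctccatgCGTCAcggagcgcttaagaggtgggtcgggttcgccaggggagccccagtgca

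The capitals mark the CArG box in Egr2, the site of serum response factor, and partial CRE sites (TGACG, or CGTCA on the other strand, outside a full CRE), a site of CREB. A partial CRE was found in 5 of 5 members with an entry, against 17.1% of all 33469 windows of the table, and a CArG box in 2 of 5, against 1.5%. Egr1 had CArG boxes at 105 to 96 and at 83 to 74 bases before its start, and partial CREs at 135 to 131 and 66 to 62. Egr2 had its CArG box and its partial CRE at the same distances as the nearer pair of Egr1, 83 to 74 and 66 to 62 bases. Egr4 had partial CREs at 178 to 174 and 110 to 106, Nr4a1 at 246 to 242, 226 to 222, 82 to 78 and 53 to 49, and Nr4a2 at 8 to 4.

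In the same windows, the full CRE (TGACGTCA, in 1.59% of all windows), the Egr site (GCGTGGGCG, 0.478%), the Nr4a site NBRE (AAAGGTCA, 1.24%) and TATAAA (12.9%) were found in 0 of 5 members. These are matches of fixed letter patterns in a short window, so variants of a site, such as other TATA boxes, were not counted. Binding was not measured.

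**Figure D4:**
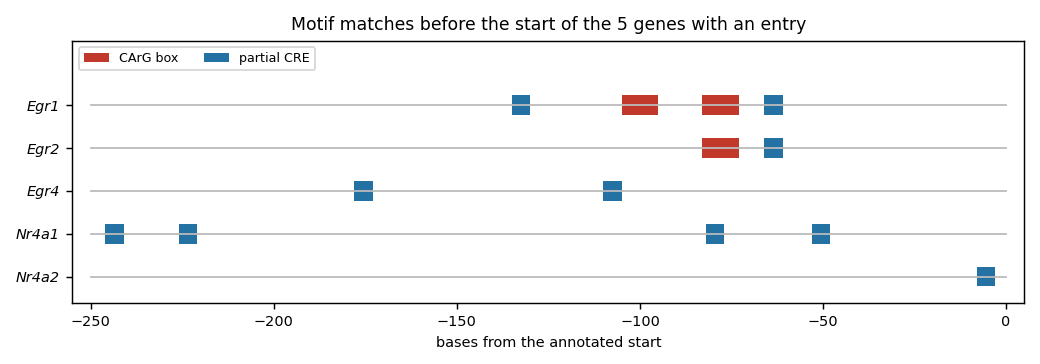
Positions of the motif matches in bases from the annotated start (horizontal axis) for the 5 genes with a promoter entry, with CArG boxes in red and partial CREs in blue. Egr1 and Egr2 share a CArG box at 83 to 74 bases and a partial CRE at 66 to 62 bases before the start.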

How the data were processed

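CA1 tissue of rat hippocampal slices was used for RNA extraction, and libraries were made with the KAPA stranded kit with RiboErase. The authors deposited whole-number counts per gene for 10 libraries, not normalized and not pooled. Per the paper's methods the authors trimmed reads with Trim Galore, removed duplicates with Samtools, aligned with TopHat2 and used Cufflinks and Cuffdiff. The submitters' processing notes also name STAR, RSEM, HISAT2 and Salmon and the human build GRCh38, while the methods name rat and mouse builds. Which program made the counts, with which annotation and strand setting, is not given in the sources used here, so genes that overlap others are uncertain. Groups and replicate numbers came from the sample titles. The paper calls the 2 libraries of a group biological replicates, and which animals gave each library is not given in the sources used here. The 2 libraries per group limit the precision, and an exact permutation test of 2 libraries against 2 cannot give a two-sided p below 0.333.

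The counts were analysed with edgeR 4.0.16 in R 4.3.3 (filterByExpr by group, TMM factors, quasi-likelihood fit over all 10 libraries, Benjamini-Hochberg adjustment over 15032 genes, threshold 0.05). The 8 comparisons and the F test over 5 groups used the same fit. Normalized CPM and log2 values used a prior count of 2 for profiles. DESeq2 1.42.0, limma 3.58.1, RLE factors, other filters, a replicate block, fits of the compared libraries alone, a fold limit and leaving out each library were tried as alternatives. The code was tested on simulated data. All 7 members are named in each comparison, genes of other lists where they passed the adjusted threshold, and otherwise Fos, Arc and Npas4. Marker genes at an unadjusted p under 0.05 (Rgs14, Bok, Mbp, Mobp, Csf1r, C1qa, Aldh1l1 and Aldoc) and the CA1 markers and Cldn5 were named outside this rule, after their values were seen. The upstream genes Crebbp, Ep300 and the nearest profiles are named for their role or likeness. The members and lists were chosen with earlier results of these data known.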

Additional observations from a re-analysis of the deposited data

How the results depend on the processing

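The number of members past the adjusted threshold was 0 in every comparison and over the 5 groups under each alternative except 1. Without a filter on low counts, 5 members passed over the 5 groups, 4 in SKF+Aβ+CSP against SKF, 5 in CSP-TTK21 alone against SKF, 1 in SKF+Aβ+CSP against SKF+Aβ and 3 in SKF+Aβ+CSP-TTK21 against CSP-TTK21 alone. In that fit of 25251 genes edgeR's prior degrees of freedom were infinite, against 8.44 with the filter.

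At an unadjusted p under 0.05, an alternative chosen after seeing the data, the number of members without the filter, with the share of all genes in the same fit, was 3 in SKF+Aβ against SKF (16.4%), 4 in SKF+Aβ+CSP-TTK21 against SKF (14.3%), 4 in SKF+Aβ+CSP against SKF+Aβ (2.64%), 1 in SKF+Aβ+CSP-TTK21 against SKF+Aβ (6.74%) and 6 in SKF+Aβ+CSP-TTK21 against SKF+Aβ+CSP (8.04%). With DESeq2 it was 2 over the 5 groups (12%), 2 in SKF+Aβ+CSP against SKF (15.0%), 1 in SKF+Aβ+CSP against SKF+Aβ (1.18%) and 2 in SKF+Aβ+CSP-TTK21 against CSP-TTK21 alone (2.41%). With only the compared libraries it was 2 in SKF+Aβ+CSP against SKF+Aβ (2.8%) and 4 in SKF+Aβ+CSP-TTK21 against SKF+Aβ+CSP (13.8%). In SKF+Aβ+CSP against SKF+Aβ it was 1 with limma (2.26%) and 1 with RLE factors (2.14%). The cause of these shifts was not tested. With 1 library left out, which leaves a group with 1 library whose spread is assumed to be that of the other groups, the count ranged from 0 to 6 over the 5 groups (8.82% to 16.5% of all genes), from 0 to 3 in SKF+Aβ against SKF (16.5% to 22.1%), from 0 to 5 in SKF+Aβ+CSP against SKF (6.66% to 19.8%), from 0 to 2 in SKF+Aβ+CSP-TTK21 against SKF (8.74% to 21.7%), from 2 to 6 in CSP-TTK21 alone against SKF (2.07% to 12.3%), from 0 to 5 in SKF+Aβ+CSP against SKF+Aβ (1.45% to 4.72%), from 0 to 3 in SKF+Aβ+CSP-TTK21 against SKF+Aβ (2.64% to 12.8%), from 0 to 5 in SKF+Aβ+CSP-TTK21 against SKF+Aβ+CSP (3.92% to 9.86%) and from 1 to 5 in SKF+Aβ+CSP-TTK21 against CSP-TTK21 alone (2.15% to 6.6%). Other activity-induced genes lower in CSP-TTK21 alone numbered 8 to 27 (0.878% to 6.92% of all genes lower). Their number past the adjusted threshold in SKF+Aβ against SKF was 0 to 3 with 1 library left out (0.00644% to 1.92%), 0 with only the compared libraries (0.0833%), 6 with DESeq2 (5.47%), 11 without the filter (5.19%) and 5 with at least 10 counts in every library (3.36%).

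Same-numbered replicates deviated together by r of -0.07 to 0.24 between groups, and the labels do not say that a number marks shared animals. With the replicate block, the number of members past the adjusted threshold was 0 in every comparison, and the number at an unadjusted p under 0.05 differed only in SKF+Aβ+CSP against SKF+Aβ, where it was 1 (2.75%). The exact permutation p for the spread of Nr4a2 was 0.0434 with the replicate block, and no other member's moved across 0.05.

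Of 56 log2 fold changes of members, 35 kept their sign under every alternative, among them all 7 in CSP-TTK21 alone against SKF and all 7 in SKF+Aβ+CSP-TTK21 against CSP-TTK21 alone. Nr4a1 in SKF+Aβ+CSP-TTK21 against SKF+Aβ took the other sign with only the compared libraries (-0.0042), DESeq2 (-0.0085), RLE factors (-0.0074) and at least 10 counts (-0.0094), and Egr1 in SKF+Aβ+CSP against SKF+Aβ did so with limma (0.017). With 1 library left out, the fold changes whose sign turned ranged as follows. For SKF+Aβ against SKF, Egr1 from -0.97 to 0.015, Egr3 from -0.39 to 0.28, Egr4 from -1.04 to 0.31, Nr4a1 from -0.86 to 0.088, Nr4a2 from -0.23 to 0.11 and Nr4a3 from -0.37 to 0.41. For SKF+Aβ+CSP against SKF, Nr4a3 from -0.43 to 0.061. For SKF+Aβ+CSP-TTK21 against SKF, Egr1 from -0.19 to 0.00018, Egr2 from -0.77 to 0.032, Egr3 from -0.65 to 0.016 and Egr4 from -1.0015 to 0.087. For SKF+Aβ+CSP against SKF+Aβ, Egr1 from -0.45 to 0.53, Egr2 from -1.11 to 0.014, Nr4a1 from -0.92 to 0.031 and Nr4a3 from -0.58 to 0.20. For SKF+Aβ+CSP-TTK21 against SKF+Aβ, Egr1 from -0.12 to 0.87, Egr2 from -0.38 to 0.62, Egr4 from -0.69 to 0.47, Nr4a1 from -0.40 to 0.55 and Nr4a3 from -0.25 to 0.53. For SKF+Aβ+CSP-TTK21 against SKF+Aβ+CSP, Egr3 from -0.0028 to 0.43.

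With 2 libraries per group, a difference of a member that did not pass is not shown to be absent. Egr2 and Egr4 had the fewest counts of the members.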
